A study of Mus musculus with 9 samples.

Results

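Genes whose RNA marks fat cells were followed through the isolation of mouse mammary epithelial cells. The set comprised 10 genes, Adipoq, Plin1, Plin4, Cidec, Lep, Retn, Cfd, Car3, Pck1 and Adrb3, selected by gene symbol from knowledge of fat cell biology. Earlier results of these data were known when the set was chosen. Of the 10 genes, 8 had a row that carried their symbol alone, among 19938 genes measured. Cfd, the complement protease adipsin, and Adrb3, the receptor through which noradrenaline triggers fat breakdown, had no such row and were not analysed here. The cells came from wild-type C3H females aged 8 to 9 weeks, and all 9 preparations had been freed from mammary fat with collagenase. The 3 untrypsinized samples were taken before trypsin, the 3 trypsinized samples after trypsin, and the 3 mock sorted samples once trypsin-treated cells had also gone through a mock fluorescence-activated cell sort. The 3 samples of each group are labelled as biological replicates without naming animals, and the p-values reflect the spread between those samples alone, which may be technical.

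The mammary gland is a tree of epithelial ducts embedded in a fat pad. A fat cell stores triglyceride in a large lipid droplet, coats the droplet with perilipins (Plin1, Plin4) and CIDE proteins (Cidec), and secretes hormones such as adiponectin (Adipoq), leptin (Lep) and resistin (Retn). After collagenase digestion intact fat cells float, while epithelium, vessels and stromal cells sink. Markers of the labelled cell type were present, and the summed intensity of 10 luminal epithelial genes was 84572 to 86856 in untrypsinized, 91071 to 91724 in trypsinized and 93705 to 94244 in mock sorted arrays. The sum of 10 basal epithelial genes ran the other way, at 57487 to 59413, 55320 to 56482 and 51067 to 52399 in the same order. These sums are not corrected for array scaling, and the median of all rows also rose. It was 345 to 375 in untrypsinized, 389 to 408 in trypsinized and 400 to 403 in mock sorted arrays. The median log2 difference of the luminal genes over both steps was 0.12, beside 0.05 for all genes.

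In the values as deposited, the 8 genes did not change as a group. Car3 fell at both steps and Retn fell over both steps together, whereas Adipoq, Plin1 and Lep were called in no comparison. Against untrypsinized cells, mock sorted cells had 4.56-fold less Car3 and 1.57-fold less Retn, and every other gene differed by less than the 1.5-fold that was set as the minimum. Calls required a fold of at least 1.5 together with an adjusted limma p no higher than 0.05 (Benjamini-Hochberg over all 19938 genes). By that rule 1 of 8 genes was called lower after trypsin, where 0.933% of all genes were called lower, and 1 of 8 after the mock sort, where 1.17% were. None was called higher at either step, beside 0.532% and 0.0251% of all genes. Over both steps 2 of 8 were called lower, where 3.4% of all genes were, and 0 of 8 higher, where 1.08% of all genes were.

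The proximal promoters of the 3 hormone genes are shown because the genes are known for expression in the same cell type. Retn was called lower over both steps. Lep and Adipoq were not called, and their signal was near background, as described below. The 250 bases before the annotated start are from RefSeq on build GRCm38.p6, all on the plus strand, and capitals mark the motif matches described next.
Retn, chr8:3655520-3655769: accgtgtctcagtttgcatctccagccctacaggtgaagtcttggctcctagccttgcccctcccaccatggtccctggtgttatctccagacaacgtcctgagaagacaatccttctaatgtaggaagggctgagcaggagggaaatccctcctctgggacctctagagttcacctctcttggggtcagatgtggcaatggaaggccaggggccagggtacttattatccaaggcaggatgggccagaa
Lep, chr6:29059971-29060220: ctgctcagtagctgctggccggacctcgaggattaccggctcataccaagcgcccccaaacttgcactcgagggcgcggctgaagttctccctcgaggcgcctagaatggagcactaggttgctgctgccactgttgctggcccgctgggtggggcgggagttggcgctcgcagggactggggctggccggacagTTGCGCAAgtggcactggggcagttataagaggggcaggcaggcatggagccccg
Adipoq, chr16:23146286-23146535: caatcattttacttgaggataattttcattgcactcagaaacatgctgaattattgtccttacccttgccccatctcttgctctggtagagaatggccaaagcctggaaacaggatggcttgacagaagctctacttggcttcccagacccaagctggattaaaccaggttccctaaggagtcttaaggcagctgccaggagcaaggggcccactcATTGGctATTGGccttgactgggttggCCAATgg

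Both strands of such windows were searched for TTGCNNAA, a core bound by C/EBP factors, which drive fat cell differentiation, for AGGNCANAGGNCA, the DR1 element bound by PPARG with its partner RXR, for the CCAAT box CCAAT and for the TATA box TATAAA. Of the 10 genes, 8 had a window in the RefSeq table, 9 windows in all because Cidec had 2 starts, and Car3 and Adrb3 were not matched. TTGCNNAA occurred in 3 of the 9 windows, those of Lep, Plin1 and 1 start of Cidec, and in 9.56% of 32851 windows genome-wide. In Lep it is a palindrome that begins 55 bases before the start, the letters in capitals above. CCAAT occurred in the windows of Adipoq, with 3 matches within the last 34 bases, and Plin4, and in 33.9% of all windows. The DR1 element and TATAAA, searched as those letters only, occurred in 0 of the 9 windows, and in 0.338% and 12.4% of all windows. Near variants, such as tataag in the Lep window, were not counted. The Retn window held none of the 4 motifs. These matches are descriptions of the windows, and the arrays do not measure binding there. Whether the motifs bear on the calls was not tested.

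Whether a gene stood above background was judged by olfactory and vomeronasal receptor genes, most of which are silent outside the nose. The 95th percentile of the mean log2 intensities of 1190 such genes was 8.13, an intensity of 279. Rows differ in how brightly they bind their target, so this line is a guide and not a detection limit. Adipoq and Lep, at mean log2 intensities of 7.78 and 7.99, lay below it, and the other 6 genes lay above it. Taken array by array, the same percentile was 234 to 272 in untrypsinized, 279 to 294 in trypsinized and 296 to 309 in mock sorted arrays. By that line 6 genes were above on each untrypsinized and trypsinized array, but 4, 5 and 5 on the mock sorted arrays, where Retn on the first and Cidec on all 3 fell short. Each of the 8 lay above the median of the receptor genes, 6.54. The plot of single arrays shows the line with every value.

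**Figure D1:**
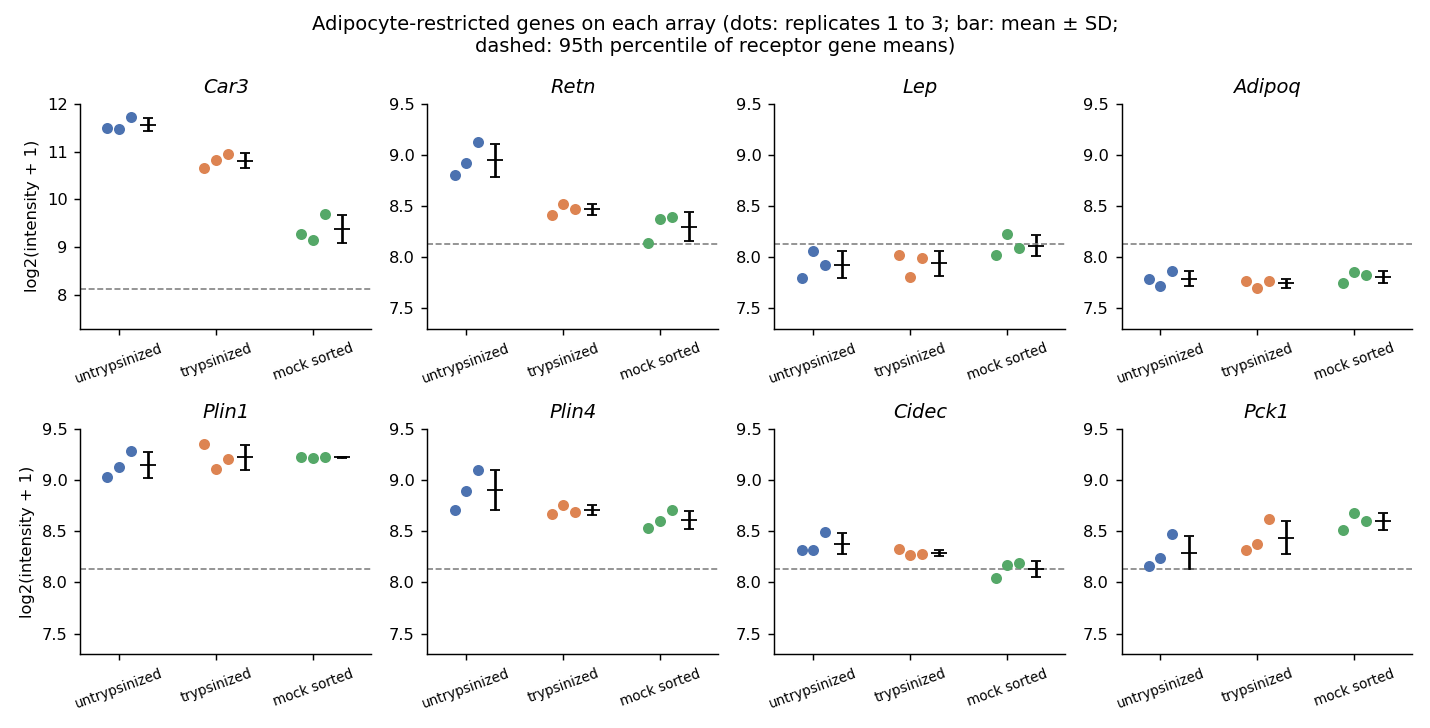
Intensity of the 8 measured genes on each array, as log2(intensity + 1), with the mean and SD of each group (n = 3). The dashed line is the 95th percentile of receptor gene means, 8.13, and the axis for Car3 covers a wider range than the others. Car3 steps down in both comparisons, Retn is highest in untrypsinized cells, and Adipoq and Lep lie at or under the line on nearly every array.

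Car3, carbonic anhydrase III, is an abundant cytosolic protein of fat cells that is also made in skeletal muscle and liver. Its intensity was 2889, 2845 and 3351 in the untrypsinized arrays, 1611, 1801 and 1986 in the trypsinized arrays, and 616, 566 and 831 in the mock sorted arrays. The 3 groups did not overlap, and each step lowered the level. On the log2 scale it fell by 0.75 after trypsin (SE 0.14, 1.68-fold, adjusted p = 0.00855, limma), from 11.56 ± 0.13 to 10.81 ± 0.15 (SD, n = 3). It fell by 1.44 after the mock sort (SE 0.14, 2.71-fold, adjusted p = 0.000737, limma), to 9.37 ± 0.29. Over both steps the fall was 2.19 (95% interval of the change -2.52 to -1.86, adjusted p = 1.64e-05, limma). The fall after the mock sort was larger than that after trypsin by 0.68, with a 95% interval from -1.26 to -0.11 for the difference between the steps. That difference did not pass adjustment over all genes (adjusted p = 0.236, limma), which 0.125% of genes did.

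The genes whose pattern over the 9 arrays lay closest to that of Car3 were Aqp7, the glycerol channel of fat cells and capillaries, C1qtnf9, an adiponectin paralogue, and Car4, a membrane carbonic anhydrase of capillary endothelium. Closeness was the root mean square difference of log2 values after centring each gene, and was 0.11 for Aqp7, 0.12 for C1qtnf9 and 0.14 for Car4. Because the 3 were picked by likeness to Car3 on these arrays, their falls and p-values follow from that choice and test nothing further. Aqp7 fell by 0.62 after trypsin and by 1.55 after the mock sort (adjusted p = 0.0151 and 0.000436, limma). C1qtnf9 fell by 0.77 after trypsin (adjusted p = 0.00234), and Car4 was lower by 0.57, under 1.5-fold (adjusted p = 0.0131). Both were called lower after the mock sort (adjusted p = 0.000304 and 0.000484, limma). No size is given there because their mock sorted intensities, 183 to 238 and 195 to 244, lay below the receptor line. Markers of vessels and of muscle moved in the same direction. Beside their counts, 0.933% of all genes were called lower after trypsin, 1.17% after the mock sort and 3.4% over both steps. Of 15 endothelial markers, all measured above the receptor line, 4 were called lower after trypsin, 14 after the mock sort and 15 over both steps, and their summed intensity was 39982 to 46105, 31856 to 32113 and 15489 to 18216 in the 3 groups in that order. Among them, Tek, a receptor of endothelial cells, fell by 2.08 over both steps (SE 0.08, adjusted p = 1.66e-06, limma). Of 11 skeletal muscle markers, 8 of them above the line, 4, 2 and 6 were called lower, and the sums were 7170 to 9554, 6476 to 7149 and 5997 to 6310. Ckm, the muscle creatine kinase, fell by 1.07 after trypsin (SE 0.19, adjusted p = 0.00675, limma), and its mock sorted mean, 7.69, lay below the receptor line. Without untrypsinized replicate 3, 2 endothelial markers were called lower after trypsin, and without untrypsinized replicate 1, 7 endothelial and 2 muscle markers. The count of muscle markers after the mock sort was 1 without trypsinized replicate 1 or 3 or without any of the mock sorted arrays. The part of vessels and muscle in the change of Car3 was not tested. In bulk samples, fewer cells of a type and less RNA per cell cannot be told apart.

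**Figure D2:**
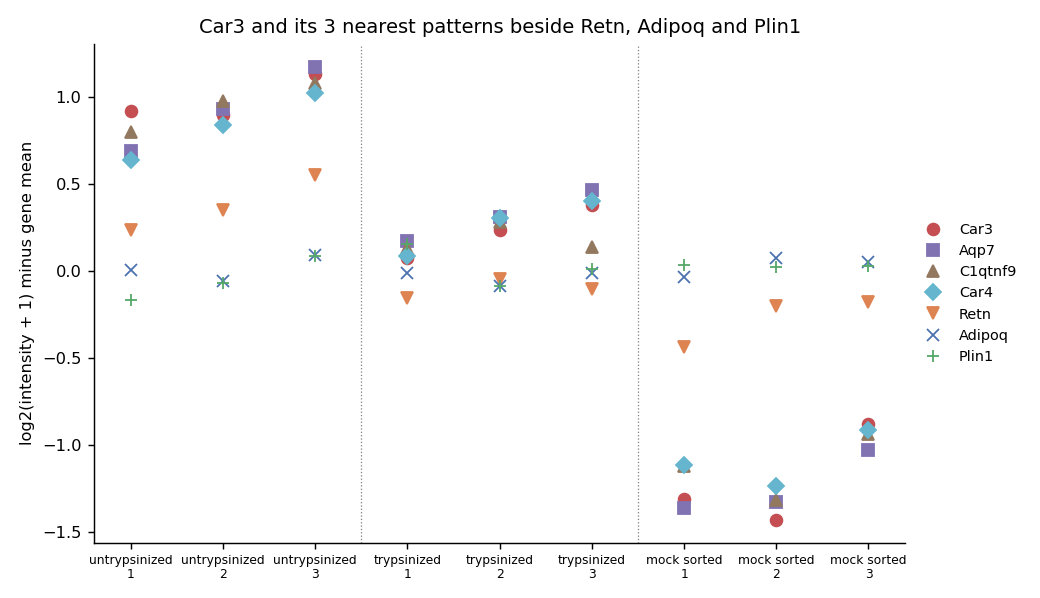
Log2(intensity + 1) of each gene minus its own mean over the 9 arrays, by array, for Car3, its 3 nearest genes by root mean square difference (Aqp7, C1qtnf9, Car4), and Retn, Adipoq and Plin1. Car3 steps down at both steps, and its 3 nearest genes do so because they were chosen by that likeness. Retn takes a shallower course, and Adipoq and Plin1 stay near 0 in all groups.

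The other hormone genes followed different courses. Retn encodes resistin, which in mice is made by fat cells and impairs the action of insulin. Its intensity was 446, 482 and 556 in untrypsinized, 340, 367 and 353 in trypsinized, and 280, 330 and 335 in mock sorted arrays. Every untrypsinized value lay above every trypsinized value, and every trypsinized value above every mock sorted value; the latter groups nearly touched. On the log2 scale Retn was lower by 0.48 after trypsin (SE 0.09, 1.39-fold, adjusted p = 0.00912, limma), a change that passed the p threshold but not the minimum fold. After the mock sort the difference was -0.17 (95% interval -0.39 to 0.04, adjusted p = 0.410). Over both steps it fell by 0.65 (SE 0.09, 1.57-fold, adjusted p = 0.00115, limma). Without untrypsinized replicate 3 or mock sorted replicate 1 the fall was 0.56 and 0.57, just under the minimum fold, with adjusted p = 0.00312 and 0.00322.

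Adipoq encodes adiponectin, the most widely used marker of fat cells. Its intensity was 219, 209 and 232 in untrypsinized, 217, 206 and 217 in trypsinized, and 213, 230 and 226 in mock sorted arrays, so that all 3 groups overlapped. The difference of mock sorted from untrypsinized cells was 0.02 on the log2 scale, with a 95% interval from -0.10 to 0.13 (adjusted p = 0.791, limma), an interval well within 1.5-fold. The sign depended on scaling: it was -0.18 after quantile normalization (adjusted p = 0.0271) and -0.13 with arrays set to a common median (adjusted p = 0.0880). Because the readings lay below the receptor line, they bound the array signal and not the RNA itself. Lep, which encodes the satiety hormone leptin, read 221, 265 and 241, then 258, 222 and 254, and then 258, 297 and 272 in the same order of groups. Every mock sorted Lep value was above every trypsinized value, narrowly, and the untrypsinized group overlapped both others. The Lep difference over both steps was 0.19 (95% interval -0.01 to 0.39, adjusted p = 0.121, limma), and -0.0031 after quantile normalization. With the replicate block over the 6 arrays compared its adjusted p was 0.0308, and over all 9 arrays 0.150.

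The lipid droplet genes differed from each other as well. Plin1 encodes perilipin 1, the gatekeeper that holds lipases off the droplet until the cell is stimulated. Its intensity was 521, 559 and 623 in untrypsinized, 652, 552 and 591 in trypsinized, and 599, 595 and 597 in mock sorted arrays. The groups overlapped in every comparison, and the mock sorted arrays lay close together. The log2 difference over both steps was 0.08 (95% interval -0.10 to 0.25, adjusted p = 0.446, limma), and -0.07 with a common median.

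Plin4, a perilipin found on small droplets of fat and muscle cells, had intensities of 418, 475 and 548, then 407, 432 and 412, and then 368, 386 and 417. The mock sorted values lay below all untrypsinized values, with the nearest values almost equal. The difference over both steps was -0.29 (95% interval -0.50 to -0.08, 1.22-fold lower, adjusted p = 0.0384, limma), past the p threshold and under the minimum fold. This p lay between 0.0530 and 0.100 without any 1 of 7 of the 9 arrays, and was 0.0775 with only the 6 arrays compared. Cidec, which fuses droplets into larger ones, read 317, 319 and 360, then 320, 308 and 309, and then 263, 287 and 291. All mock sorted values were below all others, and the difference over both steps was -0.24 (95% interval -0.38 to -0.10, 1.18-fold lower, adjusted p = 0.0149, limma), again under the minimum fold. The mock sorted mean of Cidec, 8.14 on the log2 scale, was at the receptor line.

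Pck1 encodes the cytosolic phosphoenolpyruvate carboxykinase, which fat cells use to make the glycerol backbone of triglyceride and liver uses to make glucose. Its difference ran upward, under the minimum fold. Its intensity was 285, 301 and 355 in untrypsinized, 317, 331 and 393 in trypsinized, and 364, 408 and 387 in mock sorted arrays, and only the first and the last of these groups did not overlap. The difference over both steps was 0.30 (95% interval 0.07 to 0.54, adjusted p = 0.0456, limma). This p was 0.277 after quantile normalization and 0.231 with arrays set to a common median, and the difference was 0.14 and 0.15. Without untrypsinized replicate 1 or 2, trypsinized replicate 2, or any 1 of the mock sorted arrays, the p lay between 0.0530 and 0.141.

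**Figure D3:**
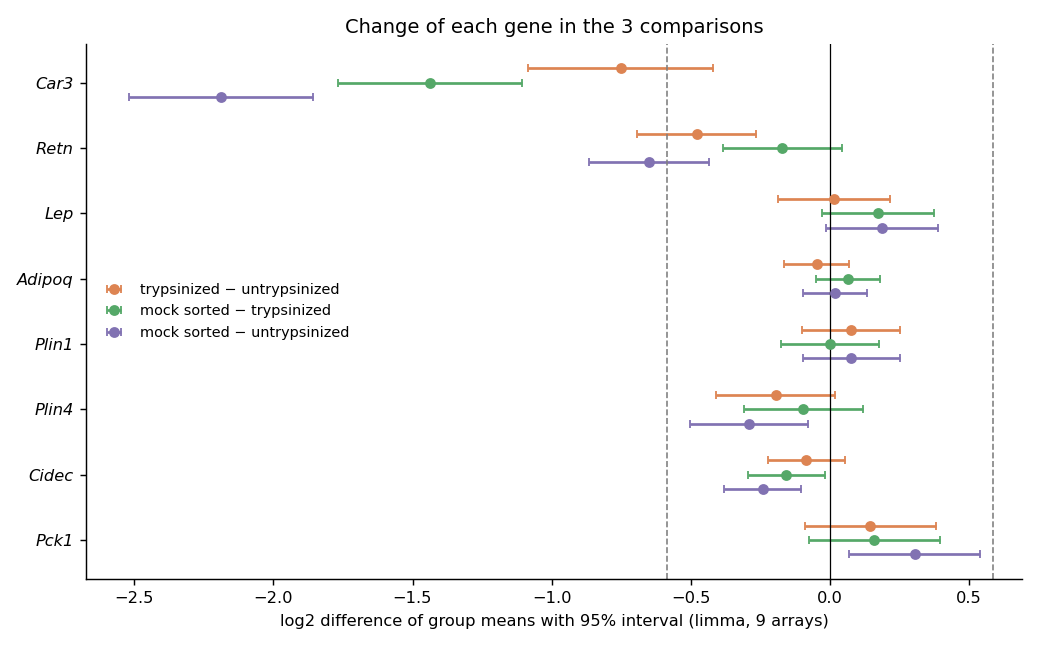
Log2 difference of group means for each of the 8 genes in the 3 comparisons, with 95% intervals from limma. Dashed lines mark 1.5-fold. Car3 lies beyond the line in all 3 comparisons and Retn over both steps, and the intervals of Adipoq and Plin1 include 0 in every comparison.

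Counts without a minimum fold showed the same mixture in the values as deposited. At an adjusted p of 0.05 or below, 2 of 8 genes were lower after trypsin, where 11.5% of all genes were, and 0 higher, where 13.9% were. The count was 1 of 8 after the mock sort, where 4.2% were. None was higher after the mock sort, beside 0.466% of all genes. Over both steps 4 of 8 were lower and 1 higher, beside 18% and 21% of all genes. After quantile normalization Adipoq, Plin4, Cidec, Retn and Car3 were lower at an adjusted limma p of 0.05 or below, after trypsin and over both steps. None of the 8 was higher under that scaling, where the adjusted p of Pck1 over both steps was 0.277. By overlap of single arrays, 2 of 8 genes lay wholly below untrypsinized levels after trypsin and 0 wholly above, beside 19.4% and 25% of all genes. After the mock sort 3 lay wholly below and 1 above, beside 14.3% and 9.74%, and over both steps 4 and 1, beside 23.4% and 28.7%. The median log2 difference of the 8 over both steps was -0.11, beside 0.05 for all genes. Scaling moved both medians: with arrays set to a common median the values were -0.26 and -0.09. The 8 genes nearest to the members' mean pattern over the 9 arrays were Klhl29, Bok, Dcun1d3, Pcdhb17, Afap1l1, Galnt15, Ext1 and Gpr176, at root mean square differences of 0.039 to 0.047, and that mean is weighted by the large range of Car3. The 3 nearest to Adipoq were Mlec, Gpr26 and Coro2a, at 0.030 to 0.033. That they moved little follows from their choice by likeness to Adipoq.

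Few genes of the wider machinery of fat storage were called, and few of all genes were. Over both steps 3.4% of all genes were called lower and 1.08% higher. Smaller changes that passed the p threshold ran in both directions, as they did over all genes. Of 18 genes for the lipid droplet coat and lipolysis, 3 of them also members of the set above, 0 were called after trypsin and 1 lower after the mock sort, and that gene, Mgll, was also the 1 called over both steps. With no minimum fold, 4 of the 18 were lower and 5 higher over both steps at an adjusted p of 0.05 or below. Over all genes those shares were 18% and 21%. Mgll, the monoacylglycerol lipase that completes triglyceride breakdown, fell by 1.16 over both steps (SE 0.08, adjusted p = 1.58e-05, limma). Lipe, the hormone-sensitive lipase, differed by 0.06 over both steps (SE 0.04, adjusted p = 0.186). Of 9 measured genes of triglyceride synthesis and of 14 genes of fatty acid synthesis, 0 were called in any comparison, and at an unadjusted limma p of 0.05 or below over both steps 3 and 8 differed, beside 49.3% of all genes. At an adjusted p of 0.05 or below with no minimum fold, over both steps, 0 of the 9 were lower and 2 higher. Of the 14, 5 were lower and 3 higher, beside the same 18% and 21% of all genes. Fasn, the fatty acid synthase, which epithelium also makes, was higher by 0.31 (SE 0.04, adjusted p = 0.000329, limma), and Elovl5, a fatty acid elongase, was lower by 0.46 (SE 0.05, adjusted p = 0.000193, limma), both under the minimum fold. Of 10 genes of brown and beige fat, 0 were called in any limma comparison, with 5 at an unadjusted p of 0.05 or below over both steps, beside the same 49.3%. Ucp1, the uncoupling protein of brown fat, was at 7.60 ± 0.02 in mock sorted and 7.26 ± 0.07 in untrypsinized cells, below the receptor line in both.

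By list median, fat cell genes shared with capillary endothelium moved further over both steps than the fat cell lists above. Of 11 fat cell genes shared with capillary endothelium, 1 was called lower after trypsin, 4 after the mock sort and 7 over both steps. Of all genes, 0.933%, 1.17% and 3.4% were called lower in that order. The list median was -0.89 over both steps, beside 0.05 for all genes. The other 4 were not called over both steps, and 1 of the 11 was higher at an adjusted p of 0.05 or below. The 1 gene called after trypsin, Aqp7, lost its call without untrypsinized replicate 3 or trypsinized replicate 1. Cd36, a fatty acid receptor, went from 12.67 ± 0.10 to 12.28 ± 0.04 and then 11.10 ± 0.13, and fell by 1.57 over both steps (SE 0.07, adjusted p = 3.37e-06, limma). The fatty acid carriers Fabp4 and Fabp5 fell by 1.40 (SE 0.07, adjusted p = 3.58e-06) and 0.89 (SE 0.05, adjusted p = 1.06e-05). The endothelial sums given above fell alongside, and their part in these changes was not tested.

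Of 13 adipogenic transcription factors, 2 were called lower after trypsin, 1 after the mock sort and 4 over both steps, and 0 higher. Of all genes, 0.933%, 1.17% and 3.4% were called lower in that order. Without trypsinized replicate 1, 2 were called after the mock sort. Pparg, the master regulator of fat cell differentiation, fell by 0.90 over both steps (SE 0.08, adjusted p = 6.84e-05, limma). Ebf1 and Ebf2, which mark fat cell precursors and stromal cells, fell by 1.26 (SE 0.12, adjusted p = 0.000147) and 1.28 (SE 0.05, adjusted p = 2.70e-06), and the mock sorted mean of Ebf2, 8.21, was near the receptor line. The 4th, Rxrg, was below the receptor line in trypsinized and mock sorted cells, so no size is given. Cebpa, the C/EBP factor of mature fat cells, differed by -0.07 (adjusted p = 0.253). Of 11 measured markers of fat cell precursors, 0 were called after trypsin and 0 after the mock sort. At an unadjusted limma p of 0.05 or below 6 and 5 differed, beside 39.7% and 17.2% of all genes. Over both steps 3 were called lower, where 3.4% of all genes were. The 3 were Cd34, which fell 2.01-fold, Pdgfrb, which fell by 0.93 on the log2 scale (SE 0.07), and Pdgfra, which fell by 0.61 (SE 0.11), and the first is also found on vessels and the second on pericytes. Leaving out trypsinized replicate 2, mock sorted replicate 1 or mock sorted replicate 3 gave 1, 2 and 1 called after the mock sort.

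Of 13 measured secreted factors of fat tissue, which include Adipoq, Lep and Retn, 1 was called lower after trypsin, 0 after the mock sort and 3 over both steps. The shares of all genes called lower were 0.933%, 1.17% and 3.4% in that order. Retnla, a resistin relative made largely by myeloid cells, fell by 0.89 after trypsin (SE 0.18, adjusted p = 0.0105, limma) and by 1.07 over both steps (SE 0.18, adjusted p = 0.00259). Rarres2, which encodes the chemoattractant chemerin, fell by 0.80 over both steps (SE 0.07, adjusted p = 0.000119). With arrays set to a common median, 3 were called lower after trypsin. Of 12 measured hormone receptors and signalling genes of fat cells, 1 was called lower and 1 higher after trypsin, 1 lower after the mock sort, and 2 lower over both steps. These stand beside the same shares of all genes called lower, and 0.532% called higher after trypsin. Npr1, the receptor for atrial natriuretic peptide, which fat cells and endothelium share, fell by 1.58 over both steps (SE 0.08, adjusted p = 3.71e-06, limma). Slc2a4, the insulin-responsive glucose transporter of fat and muscle, fell by 0.74 (SE 0.04, adjusted p = 6.97e-06). Ffar4, a receptor for long-chain fatty acids, was higher by 0.63 after trypsin (SE 0.14, adjusted p = 0.0160), a call lost under both other scalings and without untrypsinized replicate 2 or 3 or trypsinized replicate 1 or 3. The lower call after trypsin, that of Npr1, was lost without untrypsinized replicate 3. Quantile normalization gave 4 lower calls over both steps.

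**Figure D4:**
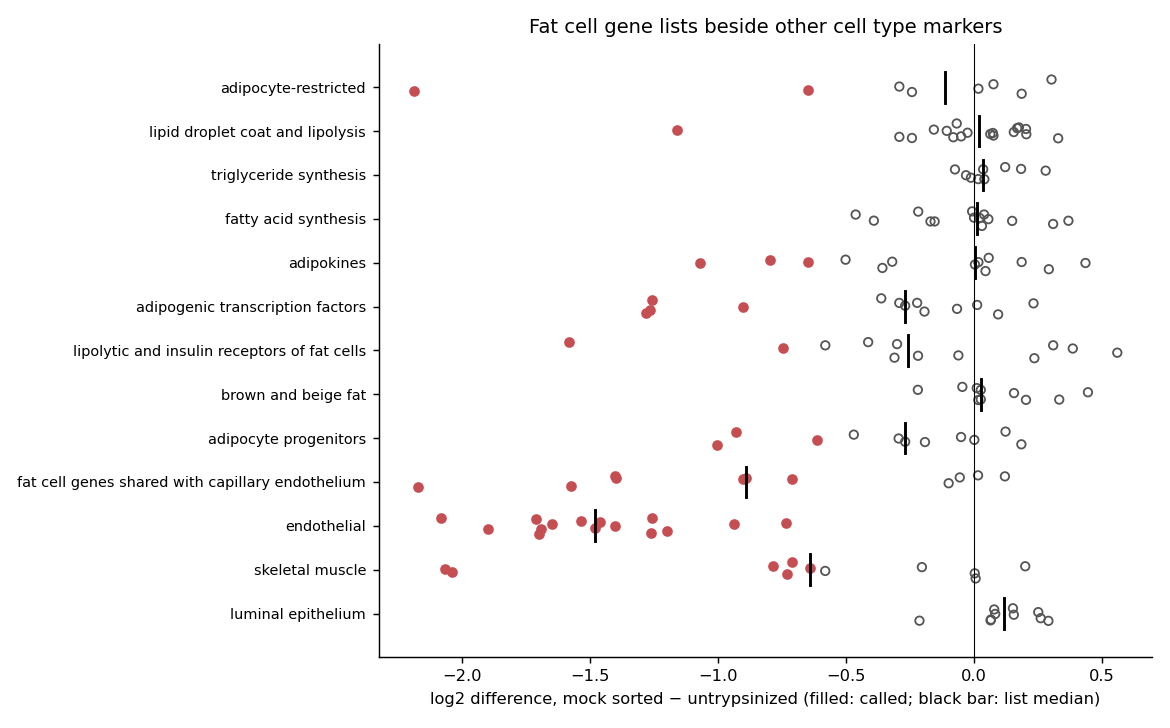
Log2 difference of mock sorted from untrypsinized cells for each measured gene of 10 fat cell lists and 3 marker lists of other cell types. Filled points were called, open points were not, and black bars are list medians. The lists for droplets and for lipid synthesis lie around 0 with a few exceptions, and the list shared with capillary endothelium lies between them and the endothelial markers.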

How the data were processed

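RNA of 9 samples was hybridised to Affymetrix whole-transcript arrays, 1 array a sample. The deposited values were intensities on a linear scale; how the authors corrected background or scaled the arrays is not given in the sources used here. Per the submitters' processing notes, the authors used limma. Values were analysed as log2(intensity + 1). Of 35512 rows, 21789 carried a single gene symbol in the platform annotation, 1621 carried several and 12102 were unnamed here; symbols were updated through RefSeq. The row with the highest mean stood for each of 19938 genes, and each measured fat cell gene had 1 row. Groups were compared in 1 limma fit over all 9 arrays (limma 3.58.1, R 4.3.3), with Benjamini-Hochberg adjustment over all genes. The number of arrays, 3 a group, limits the precision. Tested on simulated data for mock sorted against untrypsinized arrays, with 19938 genes, the fit recovered 92% of 50 genes changed 2-fold and 38% of 50 changed 1.5-fold. The 38% also reflects the minimum fold, since the estimate of a true 1.5-fold change can fall under it. The simulation changed far fewer genes than differed here and drew noise independently for each gene, so these shares are a rough guide.

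The members and the gene lists were chosen with earlier results of these data known. Named were all members, up to 4 called genes of a list by the smallest limma F-test p, and the genes nearest in pattern to the members' mean (8), Adipoq and Car3 (3 each). Lipe, Fasn, Elovl5, Ucp1 and Cebpa fall outside this rule and were chosen after their values were seen. Deviations from the group means of same-numbered trypsinized and mock sorted arrays correlated at 0.529, 0.285 and 0.292 over genes. Differently numbered arrays of these groups ran from -0.359 to 0.161. The replicate numbers were therefore taken to pair the trypsinized and mock sorted samples. That pairing is an inference from the values, not the labels. The main fit held no term for these pairs, which entered only through the replicate block among the alternatives. The correlations with untrypsinized arrays were 0.110, 0.0375 and -0.0449 for trypsinized and 0.325, 0.180 and 0.0634 for mock sorted arrays, which were not taken as pairs. Differently numbered arrays ran from -0.104 to 0.0851 and from -0.283 to 0.144 there. Alternatives were another scaling, pseudocount, row choice, moderation, threshold, a filter on dim genes, a replicate block, only the arrays compared, and each array left out.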

Additional observations from a re-analysis of the deposited data

How the results depend on the processing

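Car3 was called lower in all 3 comparisons under every alternative run, with changes of -0.83 to -0.68, -1.60 to -1.32 and -2.35 to -2.08 when 1 array was left out. The count of the 8 genes called over both steps was 1 to 2 when 1 array was left out, and Retn lost its call without untrypsinized replicate 3 or mock sorted replicate 1; after trypsin and after the mock sort it was 1 throughout. With no minimum fold, 2 genes of the set were called after trypsin and 5 over both steps, and with a common median 2 after trypsin, since Retn fell by 0.61 (adjusted p = 0.00129). The replicate block, as a term over all 9 arrays or over the 6 compared, changed no call of the 8 genes; with it, adjusted p over both steps was 0.0212 and 0.0245 for Plin4, and 0.150 and 0.0308 for Lep, all under 1.5-fold.

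Signs turned only for genes that were not called. With quantile normalization, Lep and Pck1 differed by -0.14 and -0.00092 after trypsin, and Adipoq and Lep by -0.18 (adjusted p = 0.0271) and -0.0031 over both steps. With a common median, Plin1 and Lep differed by -0.058 and -0.12 after trypsin, Plin1 by -0.015 after the mock sort, and Adipoq and Plin1 by -0.13 and -0.072 over both steps. After trypsin, Adipoq, Plin4 and Cidec passed the p threshold under both scalings with changes under 1.5-fold, at -0.20, -0.30 and -0.23 with quantile normalization and -0.18, -0.33 and -0.22 with a common median. When 1 array was left out, Lep after trypsin ran from -0.051 to 0.083, Plin1 after the mock sort from -0.056 to 0.064, and Adipoq over both steps from -0.017 to 0.058.

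Over all genes, 292 were called after trypsin, 238 after the mock sort and 892 over both steps; leaving out 1 array gave 257 to 332, 214 to 281 and 857 to 957, and no minimum fold gave 5055, 931 and 7777. The split after trypsin, 186 lower and 106 higher, was 279 and 57 with quantile normalization, 375 and 56 with a common median, and 185 and 193 with the replicate block over all 9 arrays. Over both steps, 677 and 215 became 861 and 116, and 1031 and 93, under the scalings. A common median gave 8 endothelial markers and 2 genes shared with endothelium called lower after trypsin, and 1 gene of fatty acid synthesis over both steps. The filter on dim genes left 6 of the 8 genes, without Adipoq and Lep, whose signal near background limits what their readings can show.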

Other observations

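Other cell types that fat tissue can carry moved in different ways. For reference, 0.933% of all genes were called lower after trypsin, 1.17% after the mock sort and 3.4% over both steps. The shares called higher were 0.532%, 0.0251% and 1.08%. Of 7 measured Schwann cell markers, 4 were called lower after trypsin, 3 after the mock sort and 4 over both steps (limma). Of 10 pericyte markers, 2, 5 and 7 were called lower, and of 9 measured fibroblast markers 1, 0 and 2. Leaving out 1 array gave 1 to 3 pericyte markers after trypsin, the lowest without untrypsinized replicate 3. It gave 1 to 3 fibroblast markers over both steps, the lowest without untrypsinized replicate 1 or 3 or mock sorted replicate 2. Of 10 macrophage markers, 2 were called lower over both steps, as was 1 of 10 basal epithelial markers. Of 9 measured lymphocyte markers, 1 was called higher over both steps and 0 after trypsin. Leaving out 1 array gave 0 to 3 over both steps and 0 to 4 after trypsin, with the 4 reached without mock sorted replicate 1. Their summed intensity ran from 3258 to 3762 in untrypsinized, 5541 to 13782 in trypsinized and 4936 to 11885 in mock sorted arrays. With the replicate block over all 9 arrays, 7 lymphocyte markers were called higher after trypsin and 5 over both steps, though the numbers of untrypsinized arrays were not taken as pairs.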
